A study of Mus musculus with 10 samples.

Results

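The cytosolic ribosomal protein genes, named Rps for the small subunit and Rpl for the large subunit, were followed in sorted mouse skin keratinocytes with and without progerin. Members were every locus tested in both the basal and the suprabasal table whose gene symbol has the form of a cytosolic ribosomal protein gene, with pseudogenes left out. This gave 77 loci of 75 genes, 33 loci of 31 genes for the small subunit and 44 loci of 44 genes for the large subunit, among 11290 loci tested in basal cells, 11464 in suprabasal cells and 10583 in both. GENCODE lists 80 protein-coding mouse symbols of this form, and Rpl10l, Rpl13, Rpl29, Rpl39l and Rpl3l were not analysed here.

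All 10 samples were RNA of primary keratinocytes. The skin came from FVB/N mice 4 days after birth, and a cell sorter split the cells into basal and suprabasal fractions. Bitransgenic mice, which model Hutchinson-Gilford progeria (HGPS), gave 2 basal and 2 suprabasal samples, and wild type mice gave 3 basal and 3 suprabasal samples. Progerin is a truncated, permanently farnesylated lamin A. The labels give neither the transgenes nor the promoter that drives them. As background, published bitransgenic mice of this kind carry a tetracycline-regulated human lamin A transgene with the progeria mutation and a transactivator under a Krt5 promoter, which is active in basal keratinocytes. Nothing in the labels says that samples came from separate litters, and the labels used here give no sex. Sex-linked loci differed between the genotypes, as described further on, and the part of sex in the ratios was not tested. The tables hold 1 pooled level per genotype and layer, in FPKM (fragments scaled to transcript length and library size), so no spread between samples could be computed. Each log2 ratio of bitransgenic over wild type is therefore given with a standard error (SE) derived from the ratio and the p-value in the authors' deposited table. A locus was called where the q-value in that table was under 0.05.

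The cytosolic ribosome is built from a small subunit, which reads the mRNA, and a large subunit, which joins amino acids. Its proteins are made in near equal amounts, and most of their mRNAs open with a C followed by a run of pyrimidines, the terminal oligopyrimidine (TOP) motif, through which mTORC1 and LARP1 control their translation. Many ribosomal protein genes also carry small nucleolar RNAs (snoRNAs) in their introns, and most have numerous processed pseudogenes. In mice, mutations in Rps19 or Rps20 darken the skin through p53 in keratinocytes, which makes the set of particular interest in epidermis.

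Short sequences show examples of pyrimidine runs near the start site and the small RNAs of the locus that the calls turn on. The first set gives 20 bases on each side of the annotated start site in RefSeq (GRCm38.p6), with runs of at least 8 pyrimidines in capitals, for Rps12 (chr10:23787190-23787229, minus strand), Rps6 (chr4:86857348-86857387, minus strand), Rpl27a (chr7:109519175-109519214, plus strand) and Rplp2 (chr7:141447631-141447670, plus strand), whose values are described further on.
Rps12: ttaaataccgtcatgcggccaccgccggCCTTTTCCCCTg
Rps6: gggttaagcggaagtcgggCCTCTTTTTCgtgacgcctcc
Rpl27a: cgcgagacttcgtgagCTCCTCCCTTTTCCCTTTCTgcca
Rplp2: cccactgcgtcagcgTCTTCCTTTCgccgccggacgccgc

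RefSeq start sites were matched for 56 of the 75 genes, 67 start sites in all. A run of at least 8 C or T, read on the strand of the gene, lay within these 40 bases at 29 of 67 start sites (43.3%), against 16.05% of the 32851 start sites in the same table. The same search on the other strand, for runs of A or G, found 7.46% of member start sites and 17.7% of all. A start at C followed by 4 pyrimidines was annotated at 19.4% of member start sites and 2.51% of all. Pyrimidine runs were present at 39.3% of small-subunit and 46.2% of large-subunit start sites. In Rps12 the run begins 8 bases downstream of the annotated start, and in Rplp2, Rps6 and Rpl27a it spans the start. Of the genes printed, Rps6 and Rplp2 have such a start at C in the annotation, and Rps12 and Rpl27a do not.

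Rps12, a small-subunit protein that in Drosophila takes part in cell competition, was the one ribosomal protein locus called, and it was higher in bitransgenic cells of both layers. In basal cells it stood at 58.8 FPKM in bitransgenic and 27.4 FPKM in wild type cells, a ratio of 2.14 (log2 1.10 ± 0.37 SE). The q-value in the authors' deposited table was 0.0405. In suprabasal cells it stood at 139 FPKM in bitransgenic and 22.1 FPKM in wild type cells, a ratio of 6.30 (log2 2.66 with an SE of at most 0.65). In the authors' deposited table this had a p-value of 5e-05, the smallest value the table holds, and a q-value of 0.0161. The bitransgenic level was the higher one in each layer.

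Across all loci, 1.65% were called in basal cells in either direction and 0.257% were called as higher in bitransgenic cells. In suprabasal cells the shares were 0.471% in either direction and 0.0523% higher. One called member in each layer corresponds to 1.299% of the 77 loci, so that in basal cells the share of members called in either direction was close to that of all loci. The log2 ratio of Rps12 was larger in suprabasal than in basal cells by 1.56, with an SE of at most 0.75. A Wald test with Benjamini-Hochberg adjustment over 10579 loci did not call this difference. The adjusted value was 0.9999, computed with that upper bound of the SE, so the test cannot settle the difference for Rps12. No member was called for a difference between layers, where 0.0378% of all loci were, and 3 members, Rpl27a, Rps23 and Rps12, had an unadjusted value under 0.05. When the p-values in the authors' deposited table were readjusted over tested loci, the basal adjusted p of Rps12 was 0.188 and the call was lost, while the suprabasal one was 0.0164.

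The Rps12 locus spans chr10:23784078-23788385 (mm10) and, in the annotation, holds 3 snoRNA genes on the strand of Rps12. They are printed with their conserved boxes in capitals (C and D boxes in Snord100 and Gm23130, the ACA box in Snora33), because a locus level does not separate them from the spliced mRNA.
Snora33: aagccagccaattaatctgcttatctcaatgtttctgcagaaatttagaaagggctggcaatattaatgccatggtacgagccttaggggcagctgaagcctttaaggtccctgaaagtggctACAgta
Snord100: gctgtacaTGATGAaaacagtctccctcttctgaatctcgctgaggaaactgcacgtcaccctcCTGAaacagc
Gm23130: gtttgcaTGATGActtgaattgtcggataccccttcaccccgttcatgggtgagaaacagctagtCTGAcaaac

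Of the 77 loci, 32 hold a short RNA gene. Every 50-base window of the Rps12 coding sequence also occurs in another annotated gene, among them 22 pseudogenes. The part of either feature in the Rps12 ratio was not tested.

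**Figure D1:**
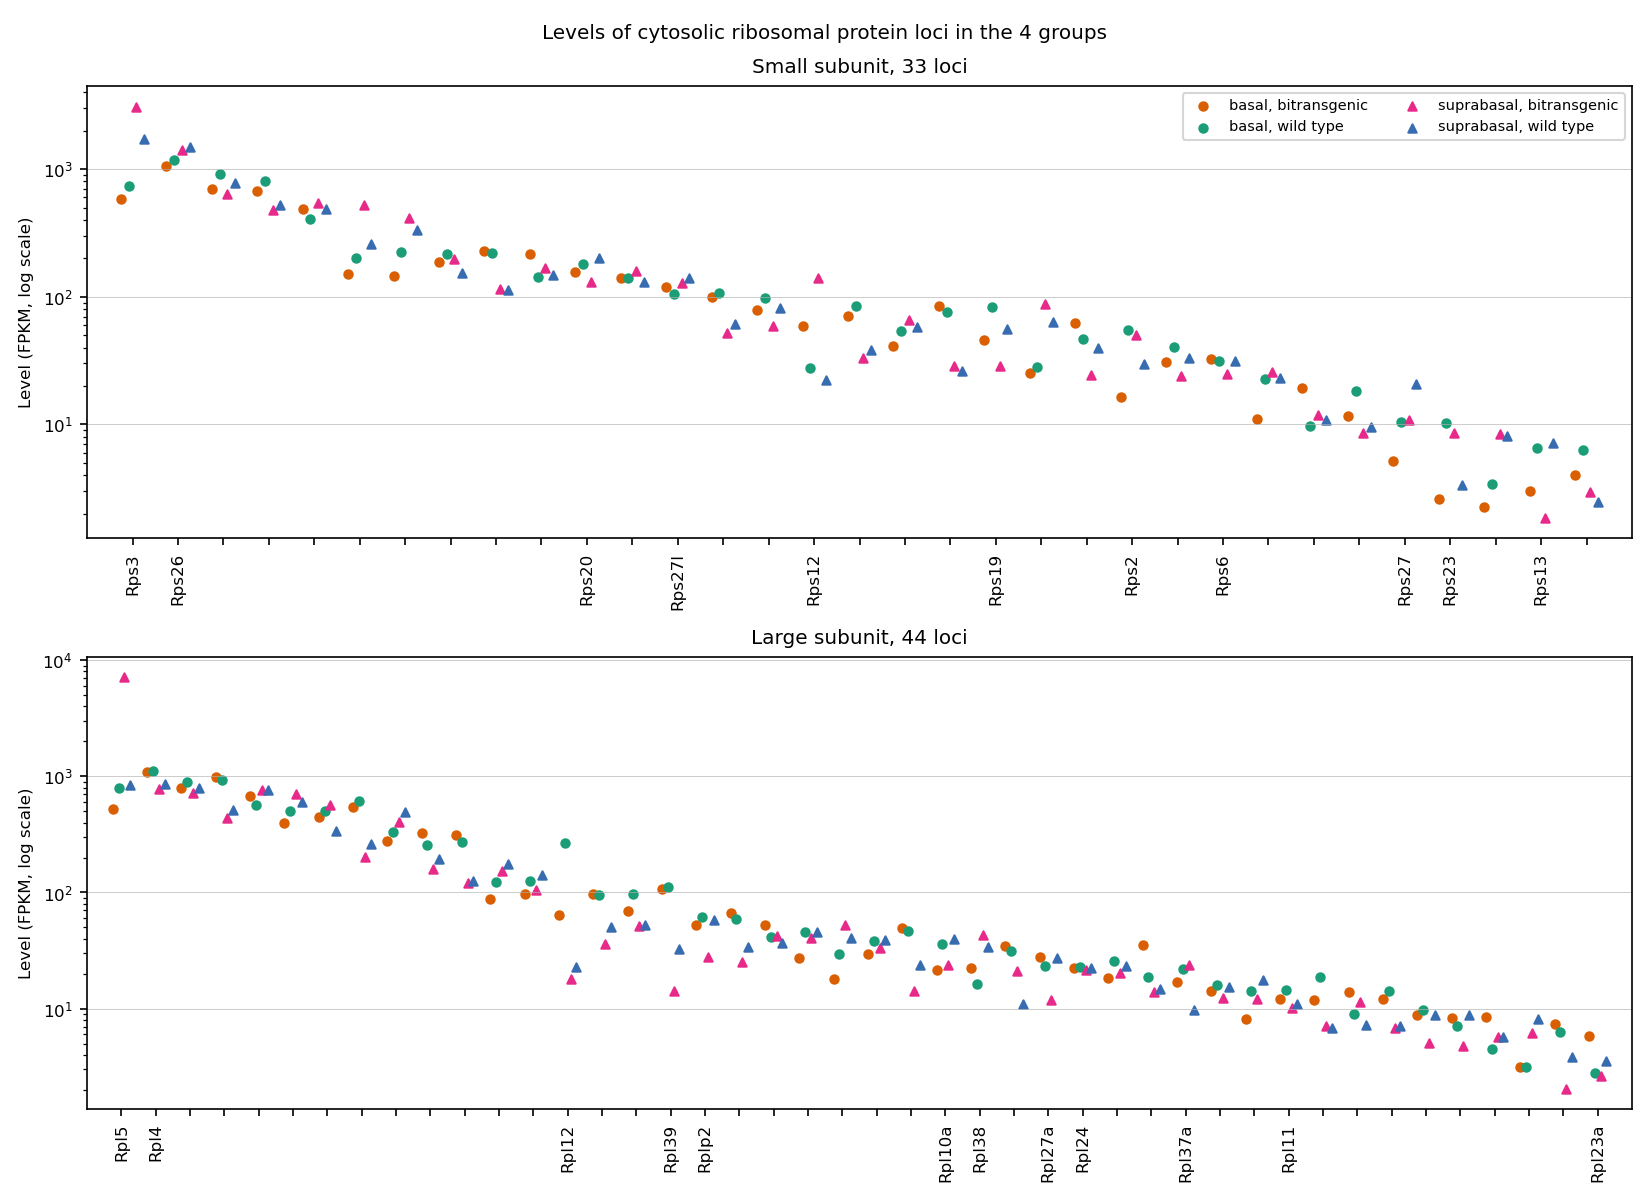
Level of each locus in FPKM (vertical axis, log scale) in basal bitransgenic, basal wild type, suprabasal bitransgenic and suprabasal wild type cells (4 markers per locus, 1 pooled value each, no error available), small subunit above and large subunit below, ordered by mean level, with some loci named. Rps12 stands at 58.8 and 139 FPKM in the bitransgenic groups, above 27.4 and 22.1 FPKM in the wild type groups, and Rpl5, which was not called, reaches 7127 FPKM in suprabasal bitransgenic cells.

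Most ribosomal protein loci lay below 0 in basal cells, at a share near that of all loci and with no member called as lower. The median log2 ratio was -0.18 over the 77 loci, 49 of which lay below 0, against -0.12 over all loci, of which 60.3% lay below 0. The small subunit had a median of -0.26 with 23 of 33 loci below 0, and the large subunit -0.15 with 26 of 44 below 0. Among all loci with a mean of at least 50 FPKM over both basal groups, about as many lay above as below 0, and the median was 0.01. Among the 39 members with a mean of at least 50 FPKM over the 4 groups of both layers, the median was -0.18. These filters differ, so the medians are not matched for level. In basal cells 3 members had an unadjusted p under 0.05 in the authors' deposited table, while 7.68% of all loci did. Bulk levels of this kind cannot tell fewer cells of a type from less RNA per cell.

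In suprabasal cells the small subunit was centred near 0 and most loci of the large subunit lay below it. The small subunit had a median log2 ratio of 0.05, with 18 loci above and 15 below 0 and an SD of 0.77 across loci. The large subunit had a median of -0.19, with 11 above and 33 below 0. Over all members the median was -0.14, against -0.08 over all loci, of which 56.6% lay below 0. Without the loci that hold a short RNA gene, the small-subunit median was -0.03. Unadjusted p-values under 0.05 in the authors' deposited table were found for 5 members, while 7.11% of all loci had one. Melanocyte genes moved with the suprabasal comparison: all 8 of 8 listed markers were higher in bitransgenic cells, none of them called, and their summed level was 3843 FPKM in bitransgenic and 2073 FPKM in wild type cells. In basal cells 3 of the 8 melanocyte markers were measured, summing to 12.9 FPKM in bitransgenic and 8.38 FPKM in wild type cells. Of 9 fibroblast markers, 6 were measured in suprabasal cells, with sums of 524 FPKM in bitransgenic and 340 FPKM in wild type cells, nearly all of it Vim at 492 FPKM in bitransgenic and 316 FPKM in wild type cells. Of these 6, 4 were higher and 2, Col5a2 and Dcn, lower in bitransgenic suprabasal cells, none called. In basal cells 3 fibroblast markers were measured with a median log2 ratio of -0.86, and Col5a2 was called lower, at 0.695 FPKM in bitransgenic and 4.62 FPKM in wild type cells. Of 5 muscle markers, Tnni2 alone was measured in basal cells and was called, at 1.08 FPKM in bitransgenic and 9.44 FPKM in wild type cells. The part of other cells in the ribosomal protein values was not tested.

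**Figure D2:**
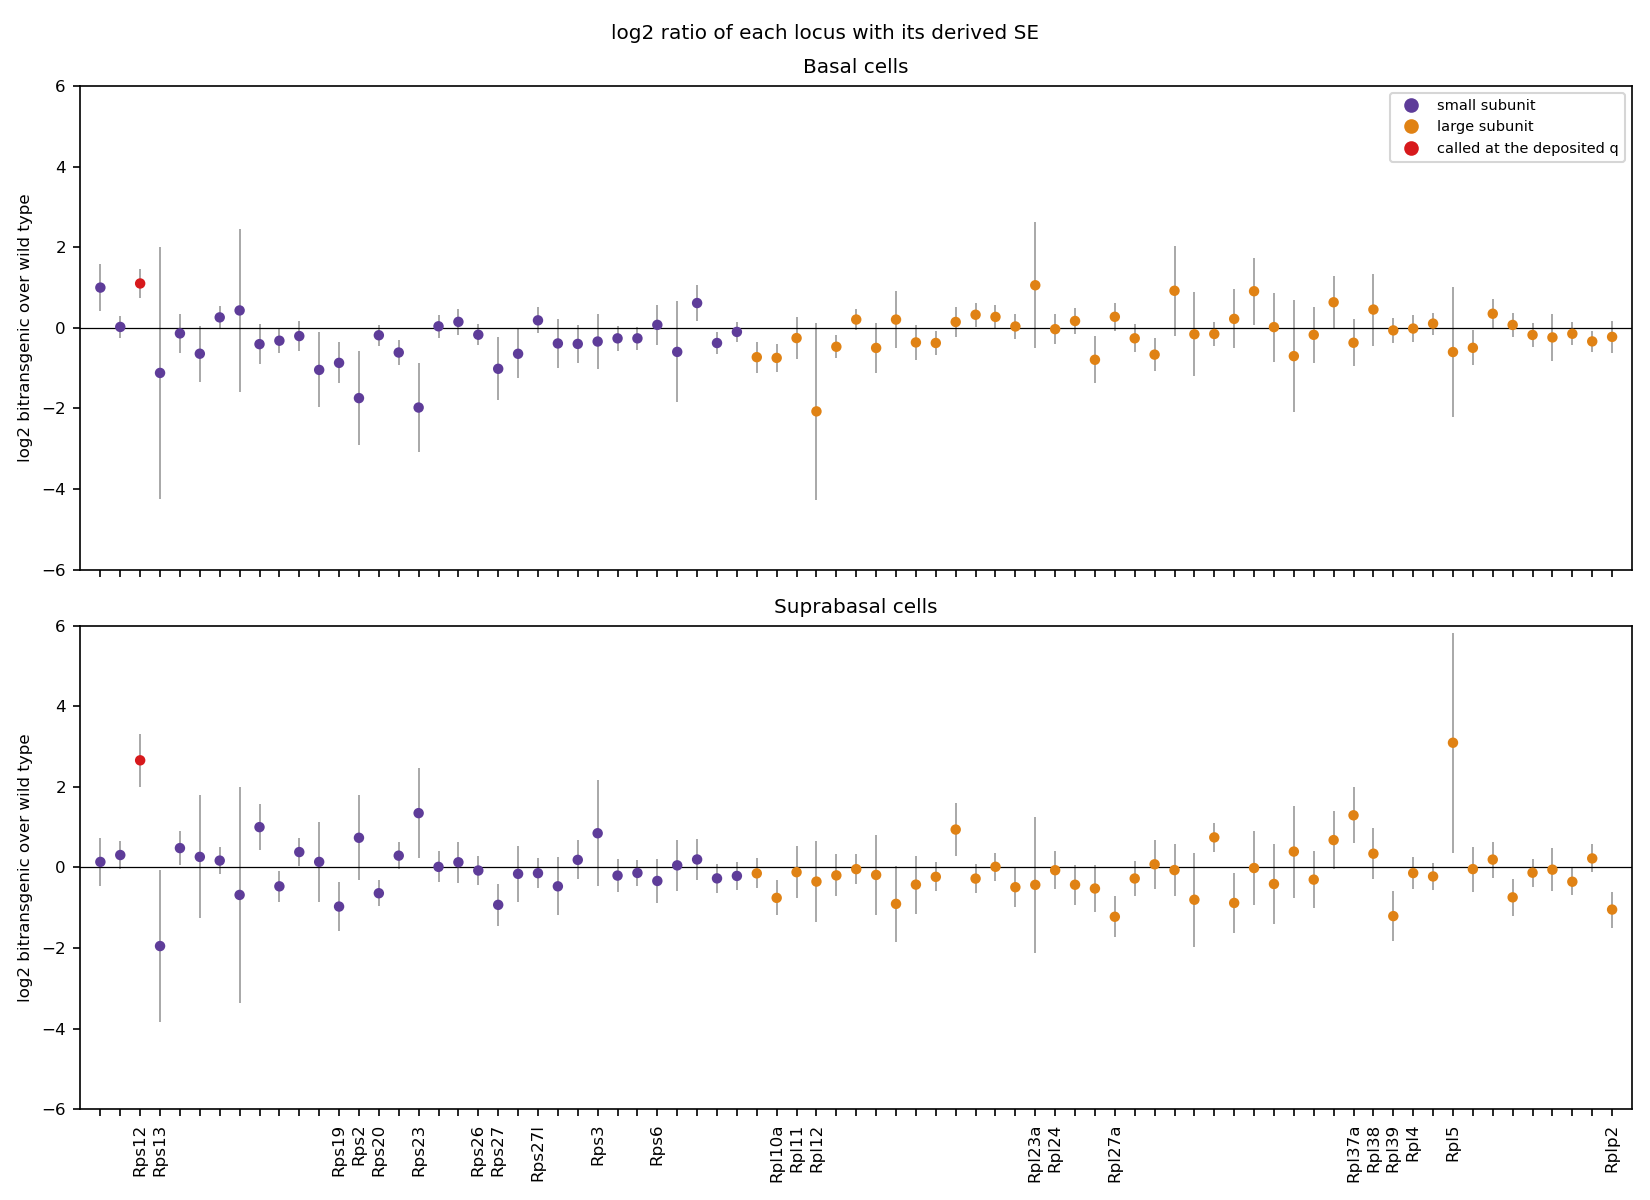
log2 ratio of bitransgenic over wild type for each locus (points) with its derived SE (bars) in basal cells (above) and suprabasal cells (below), small subunit at the left and large subunit at the right, with some loci named. Rps12 is the one called locus in each layer, and the widest bars belong to loci such as Rps13, Rpl12 and Rpl5.

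The standard deviation (SD) of the log2 ratio across members was 0.59 in basal and 0.74 in suprabasal cells. Across all loci with at least 1 FPKM in both groups, a level that every member reached, it was 0.66 and 0.68, so the members' spread was slightly smaller in basal and slightly larger in suprabasal cells. Across all loci, low ones included, it was 0.86 and 0.84. A ratio beyond 1 on the log2 scale, in either direction, was found for 8 members in each layer (10.39%), and for 14.1% of all loci in basal and 13.1% in suprabasal cells. Across the layers, 12 loci were higher in bitransgenic cells in both, 32 were lower in both, and 33 changed side, 16 of them higher in basal and lower in suprabasal cells and 17 the reverse. These shares of 15.6%, 41.6% and 42.9% lay near those of all loci tested in both layers, 21.2%, 39.4% and 39.5%.

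**Figure D3:**
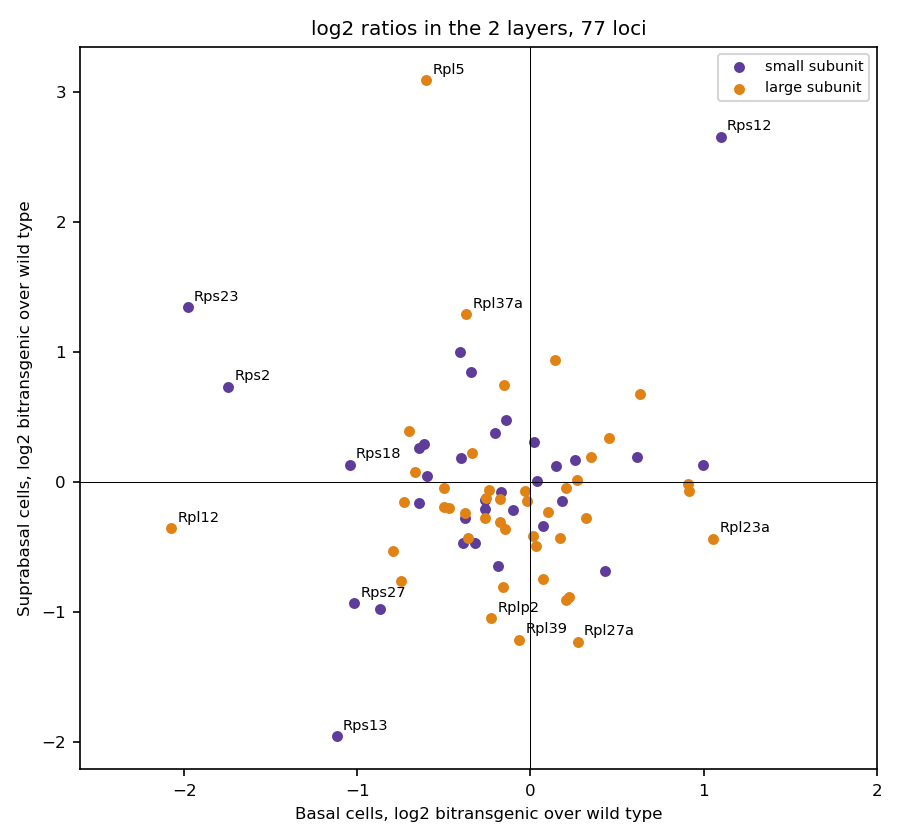
log2 ratio of bitransgenic over wild type in basal cells (horizontal axis) and suprabasal cells (vertical axis) for the 77 loci, coloured by subunit, with loci named where either ratio exceeds 1 in size. Rps12 lies alone at the upper right, at 1.10 and 2.66, and 32 loci lie in the lower left area.

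Among small-subunit proteins, those at the mRNA path gave ratios of both signs, none called. Rps3, which lies at the mRNA entry and also acts in DNA repair, had 584 FPKM in bitransgenic and 739.5 FPKM in wild type basal cells. In suprabasal cells it had 3092 FPKM in bitransgenic and 1721 FPKM in wild type cells (log2 0.85 ± 1.32). The Rps3 locus holds the short RNA genes Snord15a and Snord15b, and their part in the value was not tested. Rps2, at the same entry, had 16.3 FPKM in bitransgenic and 54.8 FPKM in wild type basal cells (-1.75 ± 1.17), but 49.8 FPKM in bitransgenic and 29.96 FPKM in wild type suprabasal cells (0.73 ± 1.05). Rps23, which sits near the decoding centre, showed the same turn at low levels. It had 2.62 FPKM in bitransgenic and 10.3 FPKM in wild type basal cells (-1.98 ± 1.10), and 8.48 FPKM in bitransgenic and 3.34 FPKM in wild type suprabasal cells (1.34 ± 1.12). The difference of the Rps23 ratios between layers was 3.32 ± 1.57 and was not called.

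Rps6, the substrate of S6 kinase below mTORC1, was nearly level in basal cells, with 32.8 FPKM in bitransgenic and 31.2 FPKM in wild type cells (0.07 ± 0.50). In suprabasal cells it had 24.8 FPKM in bitransgenic and 31.3 FPKM in wild type cells (-0.34 ± 0.55). Rpsa, the protein also known as the laminin receptor, had 99.3 FPKM in bitransgenic and 107 FPKM in wild type basal cells, and 52.3 FPKM in bitransgenic and 60.6 FPKM in wild type suprabasal cells. Its ratios, -0.10 ± 0.26 and -0.21 ± 0.35, were both smaller than their SE.

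The skin-colour genes Rps19 and Rps20 were lower in bitransgenic cells of both layers without a call. Rps19, whose loss also causes Diamond-Blackfan anaemia in humans, had 45.7 FPKM in bitransgenic and 83.6 FPKM in wild type basal cells (-0.87 ± 0.51). In suprabasal cells it had 28.6 FPKM in bitransgenic and 56.2 FPKM in wild type cells (-0.97 ± 0.62). The q-values of Rps19 in the authors' deposited table were 0.466 and 0.726. Rps20 had 158 FPKM in bitransgenic and 179 FPKM in wild type basal cells (-0.19 ± 0.26), and 129.5 FPKM in bitransgenic and 202 FPKM in wild type suprabasal cells (-0.64 ± 0.33). Its suprabasal p-value in the authors' deposited table was 0.0491, with a q-value of 0.513. Kitl, the Kit ligand that rises downstream of p53 in the dark skin of these mutants, had 8.63 FPKM in bitransgenic and 13.0 FPKM in wild type basal cells. In suprabasal cells Kitl had 19.2 FPKM in bitransgenic and 15.8 FPKM in wild type cells, again not called.

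Rps14, the gene behind the anaemia of the human deletion of the long arm of chromosome 5, and Rps7, which binds Mdm2, were not called. The Rps14 log2 ratios were -0.14 ± 0.47 in basal and 0.48 ± 0.42 in suprabasal cells. Those of Rps7 were -0.60 ± 1.26 at 2.24 FPKM in bitransgenic and 3.39 FPKM in wild type basal cells, and 0.05 ± 0.64 at 8.36 FPKM in bitransgenic and 8.08 FPKM in wild type suprabasal cells. Rps10 had the highest basal log2 ratio of the small subunit after Rps12, at 0.997 ± 0.58. Rps15a, which had 519 FPKM in bitransgenic and 260.0 FPKM in wild type suprabasal cells (0.998 ± 0.57), was the next highest in that layer after Rps12 and Rps23. Rps13 and Rps27 were among the lowest, Rps13 at under 10 FPKM in every group (-1.12 ± 3.14 and -1.95 ± 1.89).

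A further 15 small-subunit loci, among them Rps4x, Rps9, Rps16, Rps18, Rps21, Rps25, Rps28 and Rps29, had log2 ratios between -1.05 and 0.43 in basal cells. In suprabasal cells they ran between -0.68 and 0.38, with 8 above and 7 below 0. Rps18, at 11.1 FPKM in bitransgenic and 22.9 FPKM in wild type basal cells, set the lower end in basal cells. Rps21 was the one of them with an unadjusted p under 0.05, in basal cells. It had 146 FPKM in bitransgenic and 224 FPKM in wild type basal cells, with a p-value of 0.0466 and a q-value of 0.372 in the authors' deposited table. Its suprabasal levels, 411 FPKM in bitransgenic and 336 FPKM in wild type cells, ran the other way.

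In the large subunit, Rpl5, Rpl11 and Rpl23 bind and block Mdm2 when ribosome assembly fails, which stabilises p53. Rpl5 had the largest ratio of any member but no call. It stood at 7127 FPKM in bitransgenic and 836 FPKM in wild type suprabasal cells (3.09 ± 2.72), and at 519.5 FPKM in bitransgenic and 788.5 FPKM in wild type basal cells (-0.60 ± 1.61). The suprabasal p-value in the authors' deposited table was 0.256 and the q-value 0.843. The Rpl5 locus holds 3 short RNA genes, Snord21 among them, and spans Fam69a, and its part in the value was not tested. Rpl11, the partner of Rpl5 in the 5S particle, had 12.2 FPKM in bitransgenic and 14.6 FPKM in wild type basal cells, and 10.2 FPKM in bitransgenic and 11.04 FPKM in wild type suprabasal cells. Rpl23 had 96.5 FPKM in bitransgenic and 94.4 FPKM in wild type basal cells, and 36.2 FPKM in bitransgenic and 50.9 FPKM in wild type suprabasal cells (-0.49 ± 0.48).

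None of 12 genes of p53 and ribosomal stress was called in either layer, with median log2 ratios of -0.14 in basal and -0.15 in suprabasal cells. Cdkn1a, the p53 target that arrests the cell cycle, had 138 FPKM in bitransgenic and 119 FPKM in wild type basal cells (0.21 ± 0.27). In suprabasal cells Cdkn1a had 135 FPKM in bitransgenic and 164 FPKM in wild type cells (-0.28 ± 0.34). Mdm2 itself had ratios of -0.14 ± 0.42 and -0.35 ± 0.53.

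The stalk proteins, which recruit elongation factors, were all below 0 in basal cells, where Rplp0, Rplp1 and Rplp2 had log2 ratios of -0.15, -0.34 and -0.23. In suprabasal cells Rplp2 had 27.8 FPKM in bitransgenic and 57.6 FPKM in wild type cells (-1.05 ± 0.45), with a p-value of 0.0193 and a q-value of 0.294 in the authors' deposited table. Its partner Rplp1 had 705 FPKM in bitransgenic and 605 FPKM in wild type suprabasal cells (0.22 ± 0.35), and Rplp0 202.5 FPKM in bitransgenic and 259 FPKM in wild type cells (-0.36 ± 0.34). The stalk genes thus did not share a direction in suprabasal cells.

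Several large-subunit genes are known from mouse mutants with skin, tail or skeletal defects. Rpl24, mutated in belly spot and tail mice, was level in both layers, with 22.4 FPKM in bitransgenic and 23.0 FPKM in wild type basal cells and 21.3 FPKM in bitransgenic and 22.4 FPKM in wild type suprabasal cells. Rpl38, mutated in tail-short mice and known for its role in translating Hox mRNAs, had ratios of 0.45 ± 0.89 and 0.34 ± 0.64. Rpl27a, mutated in sooty foot ataxia mice, had 28.0 FPKM in bitransgenic and 23.2 FPKM in wild type basal cells (0.27 ± 0.35). In suprabasal cells Rpl27a had 11.8 FPKM in bitransgenic and 27.5 FPKM in wild type cells (-1.23 ± 0.51), the lowest ratio of the large subunit in that layer. The p-value in the authors' deposited table was 0.0160 and the q-value 0.256. Between layers its ratio differed by -1.50 ± 0.62, the most of any member relative to its derived SE, and was not called. For Rps12 that SE is an upper bound.

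Rpl10a, which has been linked to selective translation, was lower by nearly the same ratio in both layers. It had 21.4 FPKM in bitransgenic and 35.9 FPKM in wild type basal cells (-0.75 ± 0.34), and 23.6 FPKM in bitransgenic and 39.9 FPKM in wild type suprabasal cells (-0.76 ± 0.43). Its p-values in the authors' deposited table were 0.0281 and 0.0799 and its q-values 0.260 and 0.633, so it was called in neither. Rpl12, next to the stalk base, had the lowest basal ratio, with 63.7 FPKM in bitransgenic and 269 FPKM in wild type cells (-2.07 ± 2.20). Its locus also spans Fam129b and Lrsam1. Of the 77 loci, 20 span another coding gene, those of Rps2, Rps18, Rpl19, Rpl24, Rpl32 and Rpl35a among them. The part of such genes in the values was not tested. Rpl27 had 8.17 FPKM in bitransgenic and 14.2 FPKM in wild type basal cells (-0.79 ± 0.58).

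The highest basal ratios of the large subunit belonged to Rpl23a (1.06 ± 1.56), Rpl30 (0.92 ± 1.12) and Rpl35 (0.91 ± 0.83). Their suprabasal ratios of -0.43, -0.07 and -0.02 lay below 0. Rpl23a and Rpl35 were weakly expressed, under 10 FPKM in every group. Rpl30 had 35.1 FPKM in bitransgenic and 18.6 FPKM in wild type basal cells. In suprabasal cells Rpl37a had 23.7 FPKM in bitransgenic and 9.67 FPKM in wild type cells (1.29 ± 0.70), and Rpl19 had 20.9 FPKM in bitransgenic and 10.9 FPKM in wild type cells (0.94 ± 0.65). Rpl22, which binds RNA outside the ribosome too, was at 682 FPKM in bitransgenic and 566 FPKM in wild type basal cells, and at 766 FPKM in bitransgenic and 759 FPKM in wild type suprabasal cells. Neither of its ratios exceeded its SE.

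A further 19 large-subunit loci, among them Rpl6, Rpl7, Rpl9, Rpl14, Rpl15, Rpl21, Rpl26, Rpl28, Rpl31, Rpl32, Rpl37 and Rpl41, had log2 ratios between -0.70 and 0.63 in basal cells. In suprabasal cells they ran between -0.88 and 0.74, with 4 above and 15 below 0. Rpl32 set the upper end there, with 566 FPKM in bitransgenic and 338.5 FPKM in wild type suprabasal cells. Its p-value in the authors' deposited table was 0.0442, with a q-value of 0.485.

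The 4 X-linked members were below 0 in both layers, with medians of -0.22 in basal and -0.25 in suprabasal cells and no call. Rpl10, one of the last proteins to join the large subunit, had 27.4 FPKM in bitransgenic and 45.5 FPKM in wild type basal cells (-0.73 ± 0.39). Rpl39, at the exit tunnel, had 14.2 FPKM in bitransgenic and 32.9 FPKM in wild type suprabasal cells (-1.21 ± 0.62). Rps4x and Rpl36a had ratios of -0.26 and -0.17 in basal cells and -0.20 and -0.31 in suprabasal cells. The merged locus of Xist, the RNA of the inactive X chromosome, had 108 FPKM in bitransgenic and 0.258 FPKM in wild type basal cells, and the Y-linked Ddx3y had 20.7 FPKM in bitransgenic and 32.1 FPKM in wild type basal cells. Of 6 sex-linked loci in each layer, 1 was called, higher in bitransgenic basal cells. In suprabasal cells 2 were higher and 4 lower, with sums of 229 FPKM in bitransgenic and 154 FPKM in wild type cells. The labels used here give no sex. Its part in the X-linked values, or in the ratios of Rps12 and the other members, was not tested.

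In the 1 paralog pair with both genes among the members, Rps27l stood above Rps27 in every group. Rps27l, a p53 target in human and mouse cells, had 119 FPKM in bitransgenic and 105 FPKM in wild type basal cells, while Rps27 had 5.17 FPKM in bitransgenic and 10.5 FPKM in wild type basal cells. In suprabasal cells Rps27l had 127 FPKM in bitransgenic and 141 FPKM in wild type cells, and Rps27 had 10.8 FPKM in bitransgenic and 20.7 FPKM in wild type cells. The parent gene Rps27 was lower in bitransgenic cells of both layers (-1.02 ± 0.78 and -0.93 ± 0.53), and Rps27l lay within its SE of 0 (0.18 ± 0.32 and -0.15 ± 0.37). All coding windows of Rps27 are shared with other genes, and 48.3% of those of Rps27l. Rpl3, at the peptidyl transferase centre and the parent of a muscle paralog, had ratios of -0.67 ± 0.41 and 0.08 ± 0.60.

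Levels spanned a wide range although ribosomes hold nearly all of these proteins at 1 copy. From the lowest through the median to the highest member, levels were 2.24, 52.2 and 1098 FPKM in basal bitransgenic cells and 2.81, 54.1 and 1188 FPKM in basal wild type cells. In suprabasal cells they were 1.85, 33.1 and 7127 FPKM in bitransgenic and 2.46, 38.9 and 1721 FPKM in wild type cells. By mean level the highest members were Rpl5, Rps3, Rps26, Rpl4 and Rpl8, and the lowest Rpl23a, the second Rps14 locus, Rps13, Rpl17 and Rpl35a. Rps26, also at the mRNA path, had 1054 FPKM in bitransgenic and 1188 FPKM in wild type basal cells, and 1410 FPKM in bitransgenic and 1490 FPKM in wild type suprabasal cells. Rpl4, which lines the exit tunnel, had 1098 FPKM in bitransgenic and 1113 FPKM in wild type basal cells, and 783 FPKM in bitransgenic and 865 FPKM in wild type suprabasal cells. At the other end, Rpl35a had 3.15 FPKM in bitransgenic and 3.12 FPKM in wild type basal cells, and 6.12 FPKM in bitransgenic and 8.15 FPKM in wild type suprabasal cells. Ratios of these 3 genes were smaller than their SE, and the order of members was much the same in all groups. Spearman's rho between bitransgenic and wild type levels was 0.967 in basal and 0.958 in suprabasal cells (77 loci in pooled values, which share locus length and sequence). The sum over members was 21560 FPKM in bitransgenic and 13915 FPKM in wild type suprabasal cells. Without Rpl5 and Rps3 it was 11341 FPKM in bitransgenic and 11359 FPKM in wild type cells.

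Low levels went with coding sequence that other genes share. For 74 of the 75 genes at least 1 window of 50 coding bases also occurs in an annotated pseudogene, with a median of 8 pseudogenes per gene and 119 for Rpl7a. The 11 genes with under 50% of windows shared had a median level of 620 FPKM (123 to 1534 FPKM). The 22 genes with 50% to under 90% shared had a median of 50.6 FPKM, and the 42 with 90% or more shared a median of 30.1 FPKM. Over the 75 genes, Spearman's rho between mean level and the share of windows was -0.48, given as a description. The log2 ratios also spread less in the class with the least sharing, with an SD of 0.28 in basal and 0.38 in suprabasal cells, against 0.67 and 0.86 in the class with 90% or more. That last class reaches down to 3.71 FPKM and holds Rpl5 and Rps12, with suprabasal log2 ratios of 3.09 and 2.66. The part of level and of these genes in the spread was not tested. Rpl5 and Rpl41 were exceptions, with every window shared and mean levels of 2318 and 717 FPKM. How reads with several matches were counted is not given in the sources used here.

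**Figure D4:**
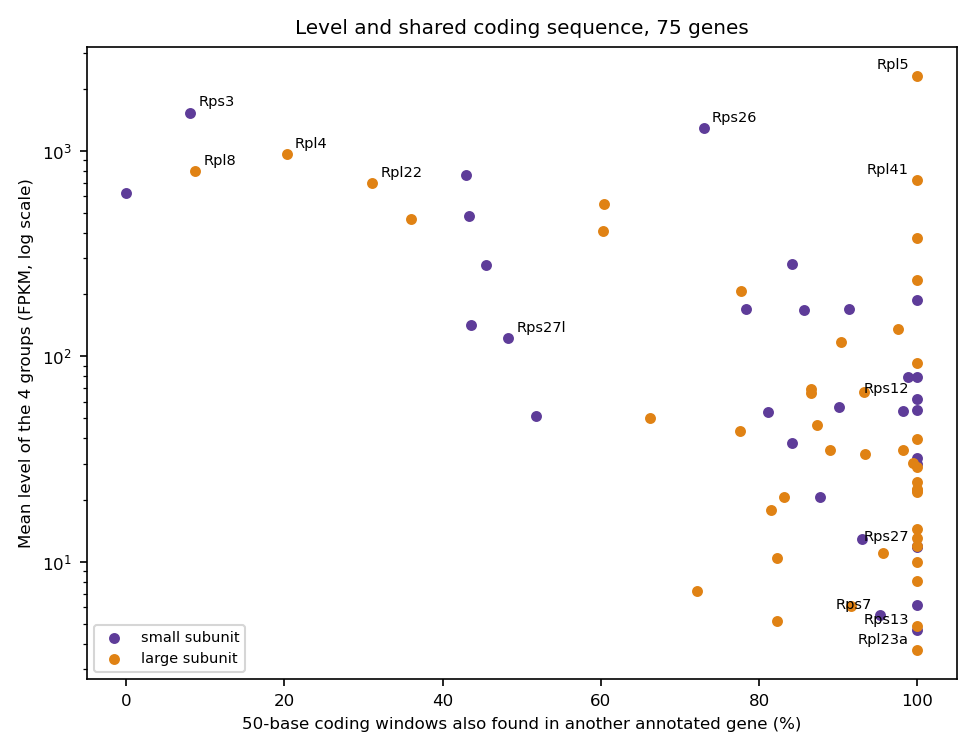
Mean level of the 4 groups in FPKM (vertical axis, log scale) against the percentage of 50-base coding windows that also occur in another annotated gene (horizontal axis), 1 point per gene, coloured by subunit. Genes with under 50% of windows shared sit between 123 and 1534 FPKM, while those at 100% reach down to 3.71 FPKM.

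Rps15 and Rps14 each appear as a second locus at the same coordinates. Both genes lie on the plus strand, but the second loci carry identifiers that fall among minus-strand genes, 20 of 20 neighbours for Rps15 and 19 of 20 for Rps14. The second Rps15 locus had 62.4 FPKM in bitransgenic and 46.3 FPKM in wild type basal cells, beside 489 FPKM in bitransgenic and 409 FPKM in wild type cells for the first. The second Rps14 locus had 4.01 FPKM in bitransgenic and 6.26 FPKM in wild type basal cells, beside 25.4 FPKM in bitransgenic and 28.0 FPKM in wild type cells for the first. The labels call the libraries strand-specific, and whether counting used the strand is not given in the sources used here.

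Suprabasal levels were compared with basal levels in each genotype as descriptions, since the tables were normalized separately. The median log2 ratio of suprabasal over basal was -0.29 in bitransgenic and -0.16 in wild type cells, against -0.03 and -0.04 over all loci, and 45 of 77 loci lay below 0 in each genotype. Rpl39 and Rpl12 were among the members with the lowest suprabasal levels relative to basal ones. Their log2 ratios were -2.91 and -1.83 in bitransgenic and -1.76 and -3.56 in wild type cells. Rps3, Rps7 and Rps14 were higher in suprabasal cells, by 2.41, 1.90 and 1.79 in bitransgenic and 1.22, 1.25 and 1.17 in wild type cells on the log2 scale. Of the basal markers, Itga6, an integrin of the basement membrane contact, had 219.5 FPKM in bitransgenic and 241 FPKM in wild type basal cells, against 85.1 FPKM in bitransgenic and 106 FPKM in wild type suprabasal cells. Col17a1, a hemidesmosomal collagen, had 237 FPKM in bitransgenic and 373 FPKM in wild type basal cells, against 95.2 FPKM in bitransgenic and 145 FPKM in wild type suprabasal cells. Krt10, a suprabasal keratin, had 1601 FPKM in bitransgenic and 2319 FPKM in wild type basal cells, and 2354 FPKM in bitransgenic and 6574 FPKM in wild type suprabasal cells. Each of these markers was thus detected in both fractions.

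Other gene lists of translation were set beside the ribosomal proteins, and no locus of these lists was called in either layer. Genes of ribosome assembly and RNA polymerase I had a median log2 ratio of 0.24 over 55 loci in basal cells, 35 above and 20 below 0, and 0.07 over 54 loci in suprabasal cells. Npm1, the nucleolar chaperone, had 155 FPKM in bitransgenic and 98.5 FPKM in wild type basal cells (0.66 ± 0.41), and Ncl, the nucleolar protein nucleolin, 379 FPKM in bitransgenic and 276 FPKM in wild type basal cells (0.46 ± 0.41). Translation factors had medians of 0.20 over 39 loci in basal and 0.12 over 40 loci in suprabasal cells. Other TOP mRNAs, which share the start motif, had medians of -0.01 and 0.12 over 21 loci in each layer. Eef2, which moves the ribosome along the mRNA, had 511 FPKM in bitransgenic and 597 FPKM in wild type basal cells (-0.22 ± 0.38).

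The mTORC1, S6 kinase and Myc list had medians of -0.04 in basal cells (15 loci) and -0.08 in suprabasal cells (16 loci). Myc, which drives transcription of ribosomal protein genes, had 104 FPKM in bitransgenic and 153 FPKM in wild type basal cells (-0.56 ± 0.29), and 105 FPKM in bitransgenic and 141 FPKM in wild type suprabasal cells (-0.42 ± 0.36). Loci with symbols of mitochondrial ribosomal proteins, the proteins of the ribosome inside mitochondria, had medians of 0.07 over 81 loci and 0.02 over 80 loci. Unlike the members, these loci include pseudogene symbols (Mrps36-ps1, Mrps36-ps2, Mrpl23-ps1 and Mrpl48-ps). Mrps30 and, in basal cells, Mrps28 appear at more than 1 locus. The 6 measured genes listed outside the symbol rule had medians of 0.07 and 0.04. Besides fusion genes and paralogs they include Rps3a1, a small-subunit gene whose symbol the rule did not take. Rps3a1 had 78.5 FPKM in bitransgenic and 70.6 FPKM in wild type basal cells (0.15 ± 0.29). In suprabasal cells it had 28.3 FPKM in bitransgenic and 37.3 FPKM in wild type cells (-0.40 ± 0.39). Fau, which encodes a small-subunit protein fused to a ubiquitin-like one, had 21.5 FPKM in bitransgenic and 39.4 FPKM in wild type suprabasal cells (-0.88 ± 0.49), without a call.

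**Figure D5:**
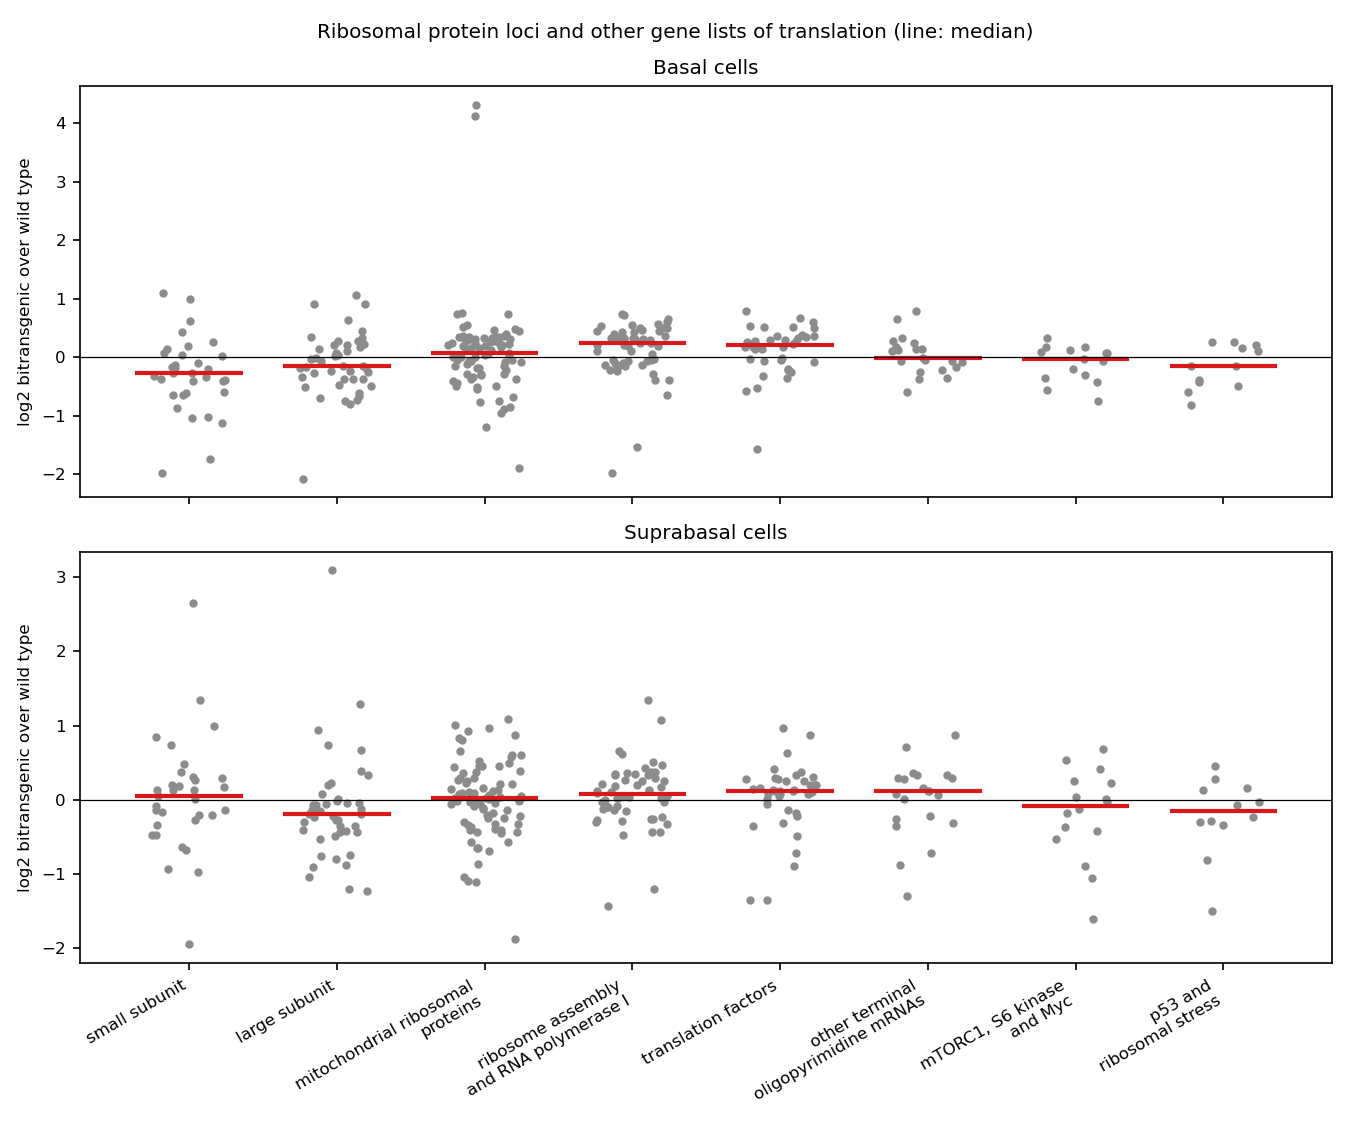
log2 ratio of bitransgenic over wild type per locus (points) with the median of each list (line) in basal cells (above) and suprabasal cells (below). In basal cells the subunit medians of -0.26 and -0.15 lie below 0, and those of ribosome assembly (0.24) and translation factors (0.20) above it.

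The mouse Lmna locus, 536 FPKM in bitransgenic and 564 FPKM in wild type basal cells and 397 FPKM in bitransgenic and 460.2 FPKM in wild type suprabasal cells, was not called. It checks no label, since the labels do not say what the transgenes are. Krt15, a basal keratin, was the 1 basal marker of 8 called, lower in bitransgenic cells of both layers. Of these 8 basal markers, 7 were lower in bitransgenic basal cells and 6 in bitransgenic suprabasal cells. Their median log2 ratios were -0.40 in basal and -0.35 in suprabasal cells. Of 12 suprabasal keratinocyte markers, 7 were higher in bitransgenic basal cells and 8 in bitransgenic suprabasal cells. In basal cells Dsc1, a desmosomal cadherin, was called higher (38.1 FPKM in bitransgenic and 13.7 FPKM in wild type cells), Lor, the cornified envelope protein loricrin, was called lower (3.18 FPKM in bitransgenic and 17.2 FPKM in wild type cells), and no other was called in either layer. The part of these shifts in the ribosomal protein values was not tested. Leukocyte, endothelial and erythroid markers were measured at 1, 0 and 0 loci in basal and 1, 0 and 1 loci in suprabasal cells.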

How the data were processed

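RNA-seq was made from sorted basal and suprabasal keratinocytes. Per the submitters' processing notes, TopHat and Cufflinks were used with the mm10 build; versions are not given. The deposited tables have the form of Cuffdiff output, 1 per layer, and their levels were read as FPKM, pooled by the authors over each genotype. The authors also deposited a log2 ratio, a test statistic (a score), p-values and q-values. Sequencing depth is unknown, scaling between libraries is not stated, and the tables were normalized separately. Only loci of status OK were used.

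From these, log2 ratios of bitransgenic over wild type were computed (within 4.13e-05 of the deposited ones). The SE is the size of the ratio divided by the normal quantile of the authors' two-sided p-value, and an upper bound at p = 5e-05. A call is a deposited q-value under 0.05. Layer differences were tested with a two-sided Wald test, Benjamini-Hochberg adjusted over 10579 loci. The test was also run on simulated data drawn with the derived SEs and with independent layers, so that run cannot check either assumption. Layers were treated as independent, although 3 wild type and 1 bitransgenic title stems recur in both. GENCODE vM21 and RefSeq GRCm38.p6 tables gave annotation, shared 50-base coding windows and start sites. Python 3.11.15, pandas 2.3.3, numpy 2.4.6, scipy 1.17.1 and matplotlib 3.10.9 were used.

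Members, lists and tests were chosen with earlier results of these data known. Named genes were those called, the 3 highest and 3 lowest log2 ratios per layer and subunit with at least 5 FPKM in the higher group, the 5 highest and 5 lowest mean levels, genes of known role, and paralog pairs; Rps4x, Rps18, Rps21, Rpl32, Rpl36a, Rpl41 and the non-member genes named were added after their values were seen. Some members that the rule covers are not reported here by name.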

Additional observations from a re-analysis of the deposited data

How the results depend on the processing

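Each group is 1 pooled value, so leaving out single samples was not possible. No paired analysis was possible because the tables hold no per-sample columns. Depth is unknown, and low loci carry wide errors. The basal count of 1 called ribosomal protein locus became 0 when the authors' p-values were readjusted over tested loci, 0 when ratios were centred on the median of expressed loci (-0.11 in basal and -0.08 in suprabasal cells), and 0 without loci that hold a short RNA gene, since Rps12 is one of these; the last also made the suprabasal count 0. The adjusted p of Rps12 after centring was 0.127 in basal and 0.0384 in suprabasal cells. Centring moved the basal medians to -0.15 for the small and -0.040 for the large subunit. Without short RNA loci the suprabasal small-subunit median was -0.034, on the other side of 0, and the median of suprabasal over basal in bitransgenic cells -0.13. Over members with under 50% of coding windows shared, a setting chosen after seeing the data, the basal small-subunit median was -0.12, the suprabasal large-subunit median -0.060, and the median of suprabasal over basal in bitransgenic cells 0.13, on the other side of 0. Apart from the loss of loci where members were left out, the cause was not tested. The other 50 values kept their direction and moved medians by at most 0.1 on the log2 scale.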
